A study of Mus musculus with 2 samples.

Results

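The genes described here encode 10 subunits of the Polycomb repressive complexes: Ezh1, Ezh2, Suz12, Eed and Jarid2 of PRC2, and Bmi1, Ring1, Rnf2, Cbx7 and Pcgf1 of PRC1. The 10 genes were listed by name and not by a measured value, though with earlier results of these data known. All 10 were found among the 43346 Ensembl genes of the tables. They were measured in 1 group of 2 libraries of polyA-selected RNA from G1E-ER4 cells, a mouse erythroid line that lacks a working Gata1 gene and carries GATA1 fused to the ligand-binding domain of the estrogen receptor. Both cultures had received 10 nM 17beta-estradiol, which activates the fusion protein, for 14 h. No untreated cells were analysed here, so the values are levels in treated cells and not responses to estradiol. Per the labels these are biological replicates 1 and 2, yet a single biosample record is cited for the pair, so part of their spread may be technical. G1E-ER4 is a single derived line, labelled male and postnatal.

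Polycomb proteins keep developmental genes silent. PRC2 methylates lysine 27 of histone H3 through EZH1 or EZH2, which need SUZ12 and EED for activity, while JARID2 guides the complex to chromatin. PRC1 ubiquitinates histone H2A through RING1 or RNF2 paired with 1 PCGF protein, such as BMI1 or PCGF1, and in its canonical form a CBX protein reads the PRC2 mark. In red cell precursors EZH1 and EZH2 are known to exchange as cells mature, and BMI1 is known for its part in progenitor self-renewal.

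Total expected counts, the estimated number of sequenced fragments per library, were 38395481 in replicate 1 and 60097379 in replicate 2. All 9 erythroid markers examined were expressed, meaning 1 TPM (transcripts per 1e6 transcripts) or more in both libraries, with a highest mean of 14073 TPM for Hba-a1. Their summed TPM was 14245 in replicate 1 and 27138 in replicate 2. Hba-a1 set this difference, with 7118 TPM in replicate 1 and 21029 in replicate 2. Of the 9, Klf1, Tal1 and Zfpm1 were lower in replicate 2 and the others higher. Transcripts annotated as protein coding held 8.32% and 1.78% of Hba-a1 TPM. The Hba-a1 counts had posterior SDs of 522 and 807, so some of its fragments were divided with other genes. Gata1, 1 of the 9, had 1132 and 2656 TPM, and its fragments were not separated here from those of the introduced GATA1 fusion. None of 5 myeloid, 4 lymphoid, 4 embryonic stem cell or 4 fibroblast and endothelial markers was expressed, and of 4 megakaryocyte markers Itga2b (mean 5.46 TPM) and Gp9 (mean 2.65 TPM) were. Against the male label, the Y-linked genes Uty, Ddx3y and Eif2s3y had 0 counts in both libraries and Kdm5d had 2 counts in replicate 1 and 0 in replicate 2. Of the Polycomb genes examined, Uty is the Y-linked one, and any bearing of this on X-linked ones, such as Bcor and Hcfc1, was not tested.

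All 10 genes were expressed, against 37.6% of protein-coding genes. Mean TPM ran from 105 for Eed to 2.43 for Ezh1, with a median of 36.4. Most neighbours in the order could not be separated: among 9 pairs of adjacent genes, only Cbx7 over Pcgf1 and Pcgf1 over Ezh1 kept the lower value of the higher gene above the higher value of the lower gene. Each gene's count was a whole number with a posterior SD of 0 in both libraries, so no fragments were divided between these genes and others. Division among the transcripts of 1 gene was another matter, and for Eed, Bmi1 and Pcgf1 leaving out the noncoding transcripts moved the mean by more than the libraries differed. TPM divides fragments by transcript length, so fragments placed on a short transcript give a high TPM.

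**Figure D1:**
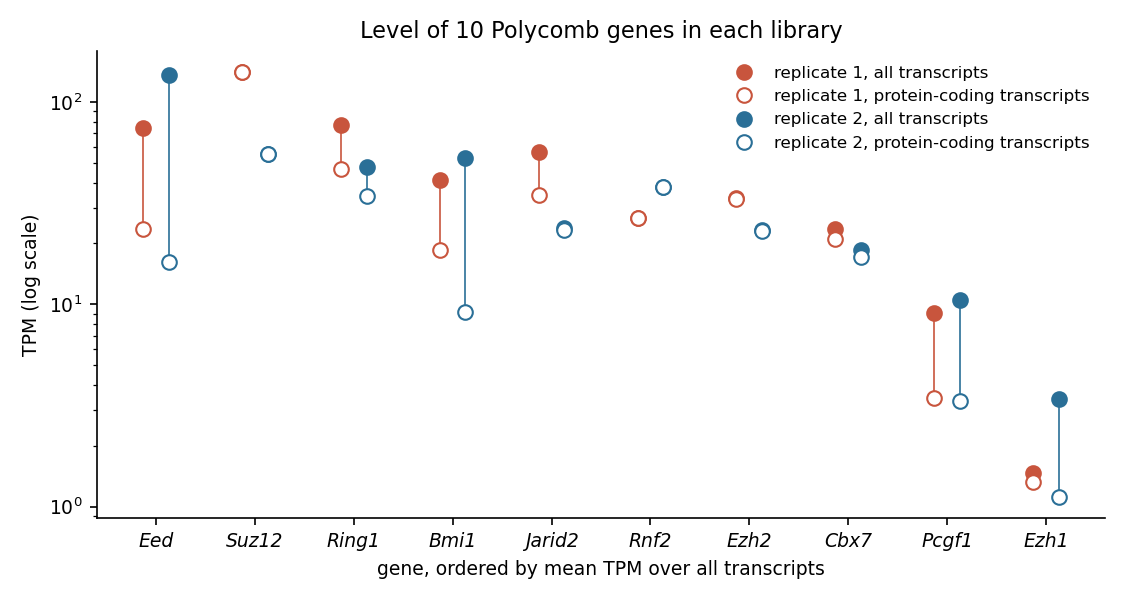
TPM on a log axis for each of the 10 genes in each library, with filled points for all transcripts, open points for protein-coding transcripts and a line joining the 2 values of a library. The filled and open points lie together for Suz12, Rnf2 and Ezh2 and far apart for Eed, Bmi1 and Pcgf1.

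Ezh2 (ENSMUSG00000029687, chr6:47530139-47595341, minus strand), the main H3K27 methyltransferase of dividing cells, had 33.6 TPM in replicate 1 and 23.2 in replicate 2 (28.4 ± 7.38, SD, n = 2), from 2449 and 3002 counts. Ezh1 (ENSMUSG00000006920, chr11:101191115-101226463, minus strand), its paralog in resting cells, had 1.47 and 3.39 TPM (2.43 ± 1.36, SD, n = 2), from 165 and 321 counts. Ezh2 was thus the higher in both libraries and the ranges were far apart. Only 8.18% of expressed protein-coding genes lay below Ezh1, and 57.9% lay below Ezh2. The log2 ratio of Ezh2 to Ezh1, taken on TPM + 0.1, was 4.43 in replicate 1 and 2.74 in replicate 2 (3.58 ± 1.19, SD, n = 2). A pair counted as different beyond the spread if its ratio had 1 sign in both libraries and a mean of over 2 times the range, and this pair did. Over protein-coding transcripts alone the libraries came closer together, with ratios of 4.54 and 4.24. The libraries disagreed on Ezh1's transcripts: the full-length coding Ezh1-203 held 83% of its TPM in replicate 1 and 32.2% in replicate 2, where Ezh1-204, an 819-base processed transcript with no coding sequence, held 42.5% from 52 counts against 0 in replicate 1. These shares depended on the estimate: by the deposited posterior mean Ezh1-203 held 36.4% and 21.5%, Ezh1-202, another full-length form listed at 0 otherwise, 19.5% and 8.79%, and Ezh1-204 8.84% and 39.5%. Ezh1's protein-coding level differed little, at 1.33 and 1.12 TPM.

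Most Ezh2 TPM lay on a transcript that lacks 1 coding exon, and the same held for Suz12 and Rnf2. The 3 exons are shown because each separates the most abundant transcript of its gene from its longer form. They are printed 5′ to 3′ from the reference genome GRCm38, with the exon in capitals and 20 bases of the neighbouring exons in the spliced longer transcript in lower case. Ezh2 exon 4 lies at chr6:47558178-47558294 on the minus strand, Suz12 exon 4 at chr11:79999057-79999125 on the plus strand and Rnf2 exon 4 at chr1:151476140-151476355 on the minus strand.
Ezh2 exon 4: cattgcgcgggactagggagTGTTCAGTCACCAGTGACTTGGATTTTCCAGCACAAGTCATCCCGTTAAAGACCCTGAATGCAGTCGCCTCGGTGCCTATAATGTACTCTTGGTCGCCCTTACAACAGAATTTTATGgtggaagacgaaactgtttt
Suz12 exon 4: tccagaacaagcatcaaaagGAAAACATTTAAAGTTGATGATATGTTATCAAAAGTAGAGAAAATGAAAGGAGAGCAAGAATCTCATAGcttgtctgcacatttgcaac
Rnf2 exon 4: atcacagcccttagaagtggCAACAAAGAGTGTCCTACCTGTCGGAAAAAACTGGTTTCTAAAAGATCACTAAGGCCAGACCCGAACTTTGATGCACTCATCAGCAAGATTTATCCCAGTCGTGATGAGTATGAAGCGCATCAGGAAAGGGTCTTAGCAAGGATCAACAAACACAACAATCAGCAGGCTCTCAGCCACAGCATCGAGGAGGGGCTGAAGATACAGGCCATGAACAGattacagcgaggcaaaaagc

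The 3 exons are 117, 69 and 216 bases long, each a multiple of 3, so that leaving one out removes 39, 23 or 72 amino acids and keeps the reading frame. Skipping was counted as the share of TPM, among transcripts that span the exon, on those that lack it. For Ezh2 it was 85.1% in replicate 1 and 86.6% in replicate 2, a near-equal pair resting on 2058 and 2571 skipping counts against 376 and 411 including counts. Ezh2-203, which encodes 707 amino acids, held 84.2% and 85.6% of the gene's TPM, and Ezh2-201, which encodes 746 and differs from it only by this exon, held 11.5% and 10.1%.

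Suz12 (ENSMUSG00000017548, chr11:79993106-80034123, plus strand), the scaffold on which PRC2 assembles, was the member with the most counts, 17903 in replicate 1 and 12584 in replicate 2. Its TPM was 141 in replicate 1 and 55.6 in replicate 2 (98.5 ± 60.7, SD, n = 2), the widest absolute spread of the 10. Exon 4 was skipped in 98.6% of its TPM in replicate 1 and 76.9% in replicate 2. The libraries therefore shared the predominant form, but the including form was rare in replicate 1, with 253 counts, and common in replicate 2, with 2944. Suz12-206, which skips the exon and encodes 718 amino acids, held 98.6% and 76.8%, and Suz12-201, which encodes 741, held 1.39% and 23.1%. Nearly all Suz12 TPM, 100% and 99.9%, was on protein-coding transcripts.

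**Figure D2:**
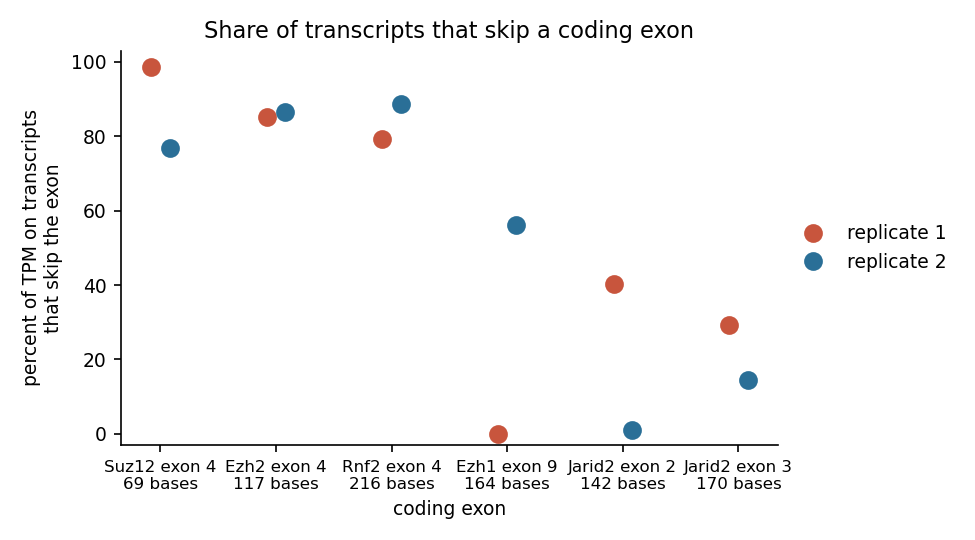
Percent of TPM, among transcripts spanning the exon, on those that skip it, for 6 coding exons of 5 genes, 1 point per library. The Ezh2 points nearly coincide at 85.1% and 86.6%, whereas Ezh1 exon 9 (0% in replicate 1, or 12.9% by the posterior mean) and Jarid2 exon 2 have 1 library near 0.

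Eed (ENSMUSG00000030619, chr7:89954654-89980983, minus strand), the PRC2 subunit that binds trimethylated H3K27, had 74.2 TPM in replicate 1 and 136 in replicate 2 (105 ± 43.9, SD, n = 2), from 1857 and 3629 counts. It ranked first of the 10, but not through its coding transcript. Eed-202, a 454-base transcript annotated as a retained intron, held 68.1% of Eed TPM in replicate 1 and 88.1% in replicate 2. The same transcript took a smaller share of the counts, 25.4% and 53.7%. On the single coding transcript, Eed-201, the level was 23.7 and 16.2 TPM, which placed Eed sixth and reversed the order of the libraries. Suz12 and Eed, which sit side by side in the PRC2 core, had a log2 ratio of 0.93 in replicate 1 and -1.29 in replicate 2 over all transcripts, so neither was the higher in both. Over protein-coding transcripts Suz12 was the higher in both, with log2 ratios of 2.57 and 1.77.

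Eed shared this feature with Bmi1, Pcgf1 and, to a lesser degree, Ring1: much of the TPM lay on a short noncoding transcript that covers a few exons and runs into an intron. Protein-coding transcripts held under 50% of TPM in both libraries for Eed, Bmi1 and Pcgf1, 3 of the 10 genes. The same held for 26.3% of the expressed protein-coding genes that have both protein-coding transcripts and others. The share among these genes is therefore close to the background. The bases below are those of Eed-202, Bmi1-203 and Ring1-202 that lie in no protein-coding exon of the gene. They are shown because they mark these transcripts off from the coding ones. They are printed 5′ to 3′ from GRCm38 in capitals, after the last 20 bases of the exon before them in lower case. They lie at chr7:89976744-89976896 on the minus strand for Eed, chr2:18682320-18682365 on the plus strand for Bmi1 and chr17:34024191-34024288 on the minus strand for Ring1.
Eed-202 intron bases: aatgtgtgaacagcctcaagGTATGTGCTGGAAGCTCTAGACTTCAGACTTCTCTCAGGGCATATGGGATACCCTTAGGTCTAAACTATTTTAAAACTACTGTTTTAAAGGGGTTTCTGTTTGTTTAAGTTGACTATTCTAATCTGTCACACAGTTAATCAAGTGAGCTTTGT
Bmi1-203 intron bases: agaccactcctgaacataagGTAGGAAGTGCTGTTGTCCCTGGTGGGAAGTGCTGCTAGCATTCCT
Ring1-202 intron bases: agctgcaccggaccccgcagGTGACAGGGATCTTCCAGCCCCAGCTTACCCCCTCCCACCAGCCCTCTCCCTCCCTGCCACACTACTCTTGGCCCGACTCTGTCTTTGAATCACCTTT

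All 3 stretches open with GT, the first bases of most introns, and directly follow an exon. They are 153, 46 and 98 bases long. Each of these transcripts covers the 5′ end of its gene, touching exons 1 to 2 of 12 in Eed, 1 to 3 of 10 in Bmi1 and 1 to 2 of 7 in Ring1. Pcgf1-206 differs in lying at the 3′ end, across exons 7 to 9 of 9.

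**Figure D3:**
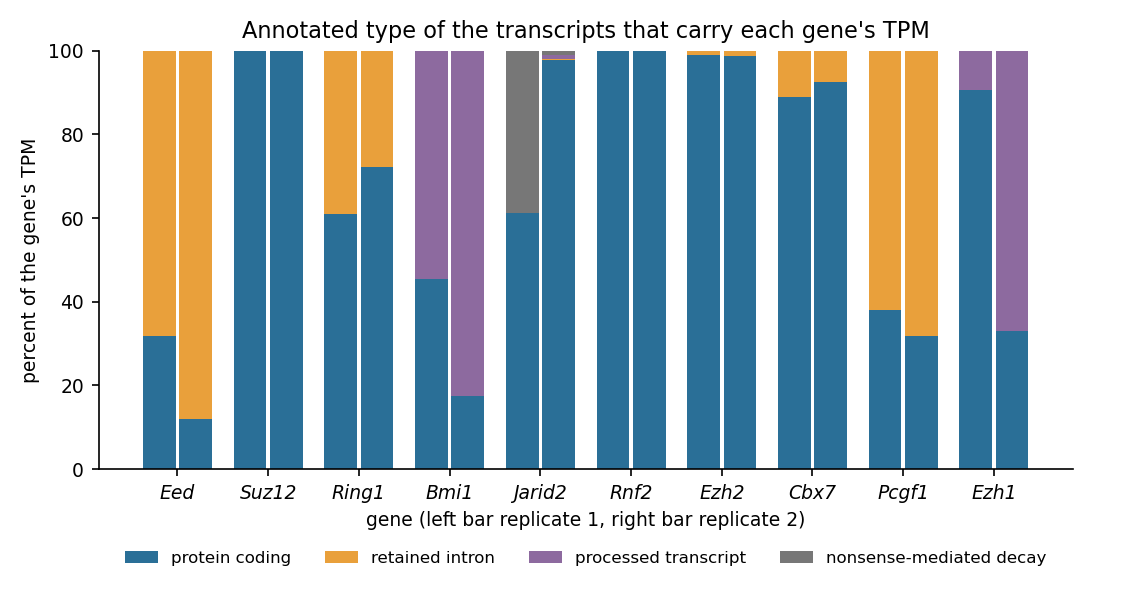
Percent of each gene's TPM by the annotated type of its transcripts, with the left bar for replicate 1 and the right bar for replicate 2. Suz12, Rnf2 and Ezh2 are nearly all protein coding, Eed and Pcgf1 are mostly retained intron in both libraries, and the libraries differ most for Ezh1 and Jarid2.

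Jarid2 (ENSMUSG00000038518, chr13:44729474-44921643, plus strand), the PRC2 cofactor with a Jumonji domain, had 56.8 TPM in replicate 1 and 23.9 in replicate 2 (40.3 ± 23.2, SD, n = 2). Its counts, 2848 and 3765, were much closer once depth was taken into account. The ratio of replicate 2 to replicate 1 was 0.801 by scaled counts but 0.421 by TPM. In replicate 1 there were 347 counts on Jarid2-207, a 673-base transcript annotated for nonsense-mediated decay that held 38.2% of TPM there, and in replicate 2 there were 0. Coding levels lay nearer, at 34.8 and 23.4 TPM. Jarid2-211, with 1029 annotated amino acids, held 24.1% and 47.6%, and Jarid2-209, with 507, held 28% and 13%. The annotated coding sequences of both are incomplete, as 3089 and 1522 bases are not whole numbers of codons. Transcripts that encode 1234 amino acids (Jarid2-201, Jarid2-208 and Jarid2-210) held 5.16% and 28.2%. Transcripts starting at an internal site 111217 bases downstream of the first start carried 62.3% of TPM in replicate 1 and 47.6% in replicate 2, and those from the upstream starts 37.7% and 52.4%.

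Ring1 and Rnf2 encode the alternative E3 ligases of PRC1. Ring1 (ENSMUSG00000024325, chr17:34020792-34024680, minus strand) had 76.8 TPM in replicate 1 and 47.7 in replicate 2 (62.2 ± 20.6, SD, n = 2), and Rnf2 (ENSMUSG00000026484, chr1:151458004-151500955, minus strand) had 26.8 and 38 (32.4 ± 7.88, SD, n = 2). Ring1 was the higher in each library, but the log2 ratio of Rnf2 to Ring1 moved from -1.51 to -0.33 and was not larger than the spread. Over protein-coding transcripts Ring1 had 46.8 and 34.4 TPM, and the ratio changed sign between the libraries (-0.80 and 0.14). Ring1-201, the only coding transcript of Ring1, held 60.9% and 72%, and the 371-base Ring1-202 held 38.8% and 25.3%.

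Rnf2 was 100% protein coding in both libraries, and 79.4% of its TPM in replicate 1 and 88.8% in replicate 2 skipped exon 4. That exon holds the end of the segment that encodes the RING finger, the domain that binds the ubiquitin-conjugating enzyme. Rnf2-203, with 264 annotated amino acids, held those shares, and Rnf2-201, with 336, held 20.6% and 11.1%. These transcripts also differ at their ends, so fragments from the ends enter the estimate. By counts the forms were nearer, with 622 skipping and 507 including counts in replicate 1 and 1743 and 696 in replicate 2. Rnf2 overlaps 158 bases of Trmt1l on the opposite strand, a gene at 56.6 and 25 TPM. Whether the counting used strand is not given in the sources used here.

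Bmi1 and Pcgf1 encode PCGF partners of different PRC1 forms, canonical PRC1 for BMI1 and the BCOR-containing variant for PCGF1. Bmi1 (ENSMUSG00000026739, chr2:18677018-18686629, plus strand) had 41 TPM in replicate 1 and 52.7 in replicate 2 (46.8 ± 8.31, SD, n = 2), and Pcgf1 (ENSMUSG00000069678, chr6:83077869-83080855, plus strand) had 9.1 and 10.5 (9.8 ± 0.99, SD, n = 2). Bmi1 was the higher in both, with log2 ratios of 2.16 and 2.32 that differed little. Over protein-coding transcripts the ratios were 2.39 and 1.43 and no longer exceeded the spread. The 464-base Bmi1-203, a processed transcript, held 54.6% of Bmi1 TPM in replicate 1 and 82.6% in replicate 2, and 10.6% and 30.9% of its counts. The coding Bmi1-201, with 324 amino acids, held 42.2% and 16.5%, for a protein-coding level of 18.6 and 9.18 TPM. For Bmi1 alone among the 10, TPM over all transcripts and scaled counts gave opposite directions between libraries: replicate 2 was 1.29 times replicate 1 by TPM and 0.703 times by counts. Over protein-coding transcripts TPM was lower in replicate 2 also for Eed, Ezh1 and Pcgf1 (3.46 and 3.34 TPM), which both of those measures put higher there. Pcgf1 rested on 94 and 215 counts, the fewest of the 10. Its 426-base Pcgf1-206 held 62% and 68.2%, and Pcgf1-205 held 33.7% and 13.6%. The annotated coding sequence of Pcgf1-205 is incomplete, as its 158 bases hold 52 whole codons and part of another. The full-length coding forms held 4.28% (Pcgf1-201, 1.89% by the posterior mean) in replicate 1 and 17.9% (Pcgf1-202) in replicate 2.

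Cbx7 (ENSMUSG00000053411, chr15:79915807-79971119, minus strand), a chromodomain reader of H3K27 methylation, had 23.6 TPM in replicate 1 and 18.6 in replicate 2 (21.1 ± 3.54, SD, n = 2), from 1645 and 1951 counts. Protein-coding transcripts held 88.9% and 92.6%. Coding sequences of 158 amino acids (Cbx7-202 and Cbx7-203) held 44.6% and 80.2%, and the 251-residue form (Cbx7-201) 21.4% and 12%. The shorter form therefore held the larger share of TPM in both libraries. In replicate 1 Cbx7-202 had 77 counts and Cbx7-203 had 507, against 498 on Cbx7-201. In replicate 2 these transcripts had 282, 828 and 395 counts in that order. Cbx7-206, which starts upstream of these, held 20.3% in replicate 1 on 82.8 counts and 0 in replicate 2. Of other canonical CBX genes, Cbx2 and Cbx8 had 0 counts in both libraries. On its shortest transcript, 3 counts per library would give Cbx8 0.255 and 0.146 TPM. The TPM of Cbx7 was 92.5 times that value in replicate 1 and 127 times in replicate 2. The error of the Cbx7 estimate is not included in these ratios. Cbx6 was expressed, at 16.8 and 8.89 TPM.

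To compare the libraries themselves, the counts of each gene, scaled by TMM (trimmed mean of M values), entered a two-sided exact binomial test. Genes were called at a fold of 1.5 or more and an adjusted p below 0.05. This test compares the 2 libraries and covers counting error only. Suz12 was the only one of the 10 called, and it was higher in replicate 1. Of all 11230 genes tested 41.4% were called, with 17.1% higher in replicate 1 and 24.3% higher in replicate 2, so the share called among the 10 genes was below the background. Its scaled count in replicate 1 was 2.35 times that in replicate 2, and the ratio of replicate 2 to replicate 1 was 0.426 (95% interval 0.416 to 0.436). The other 9 had ratios from 0.703 for Bmi1 to 1.38 for Pcgf1, and Ezh1, at 1.18, had an adjusted p of 0.12 in the binomial test. The median log2 ratio was -0.33 over the 10 genes and 0.05 over all genes tested. Of the 9 erythroid markers, 5 were called higher in replicate 2, Gata1 with its introduced fusion among them, and 3 higher in replicate 1. Whether this had a part in the Suz12 difference was not tested. In such bulk samples fewer cells with a transcript and less RNA per cell cannot be told apart.

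**Figure D4:**
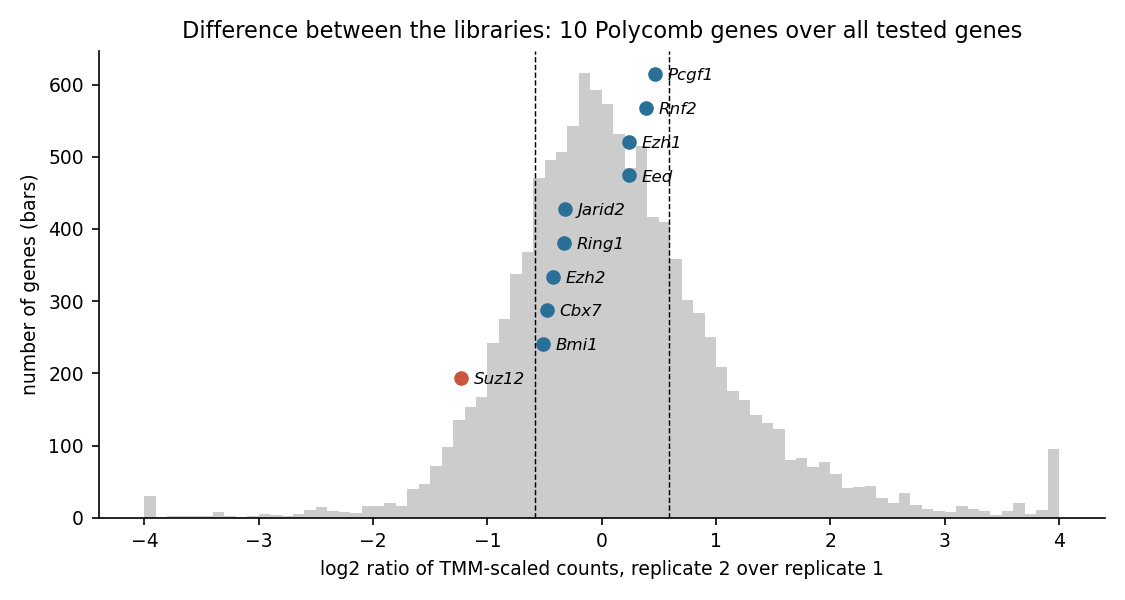
Log2 ratio of scaled counts, replicate 2 over replicate 1, for the 10 genes (points, at arbitrary heights, red where called) over the histogram of all tested genes (grey bars, with values beyond the axis ends gathered in the end bars). Dashed lines mark the 1.5-fold limits, and Suz12 alone lies outside them.

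The remaining Polycomb genes were taken as 54 genes in 7 groups by role, of which 41 were expressed. Of 44 tested, 20 were called between the libraries, 6 higher in replicate 2 and 14 higher in replicate 1, again beside 41.4% of all genes. Their median log2 ratio was -0.30.

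Among 9 PRC2 accessory genes 6 were expressed. Rbbp7, a histone-binding subunit, was highest with 158 TPM in replicate 1 and 127 in replicate 2, and Epop was at 0 in both. Its paralog Rbbp4 was called higher in replicate 2 (26.4 and 45.4 TPM). Aebp2, a cofactor found with JARID2, had 37.9 and 17.8 TPM and Phf1, a Polycomb-like protein, 40.5 and 19.5, and both were called higher in replicate 1, as Suz12 was.

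All 4 further PCGF genes were expressed, from Pcgf2 (5.25 and 1.58 TPM) to Pcgf3 (56.6 and 40.2 TPM). Pcgf2 is the closest paralog of Bmi1. The log2 ratio of Bmi1 to Pcgf2 was 2.94 in replicate 1 and 4.97 in replicate 2, with Bmi1 higher in both but by too unequal an amount to exceed the spread. Over protein-coding transcripts it was 1.81 and 2.51, which did exceed it. Pcgf3, like Eed and Bmi1, lay mostly on transcripts not annotated as protein coding, with 14.5% and 15.2% protein coding. Of 9 Polyhomeotic and SAM-domain genes 6 were expressed, led by Phc2 (99.5 and 100 TPM), and Scml4 was lowest (0.04 and 0 TPM).

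Of the variant PRC1 genes 13 of 14 were expressed. Fbrs was highest (212 and 173 TPM) and Auts2 lowest (0 and 0.01 TPM). Bcor, the partner of PCGF1, had 104 and 61.6 TPM, well above Pcgf1 itself. Bcor, Fbrsl1 (109 and 43.7 TPM) and the deubiquitinase Usp7 (54.7 and 28.1 TPM) were called higher in replicate 1. Transcripts annotated as protein coding held only 1.02% and 1.78% of Usp7 TPM, or 0.56 and 0.5 TPM. The rest can include transcripts annotated for nonsense-mediated decay or left without a type, so it was not shown to be noncoding. The mean transcript length of Usp7 was 4454 and 4323 bases. The PR-DUB group, named for the complex that removes the PRC1 mark from H2A, had 9 of 11 expressed. Mbd6 was highest, with 403 and 195 TPM, and Asxl3 was at 0. Mbd6 and Asxl2 (78.8 and 32.7 TPM) were called higher in replicate 1. Hcfc1 was called higher in replicate 2 on counts, 15220 and 49297, although its TPM over all transcripts was lower there (205 and 170.2). Over protein-coding transcripts its TPM was higher in replicate 2, at 68.5 and 145. Of the H3K27 demethylases, Kdm6b had 127 and 84.3 TPM, Kdm6a was also expressed, and Uty was at 0.

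**Figure D5:**
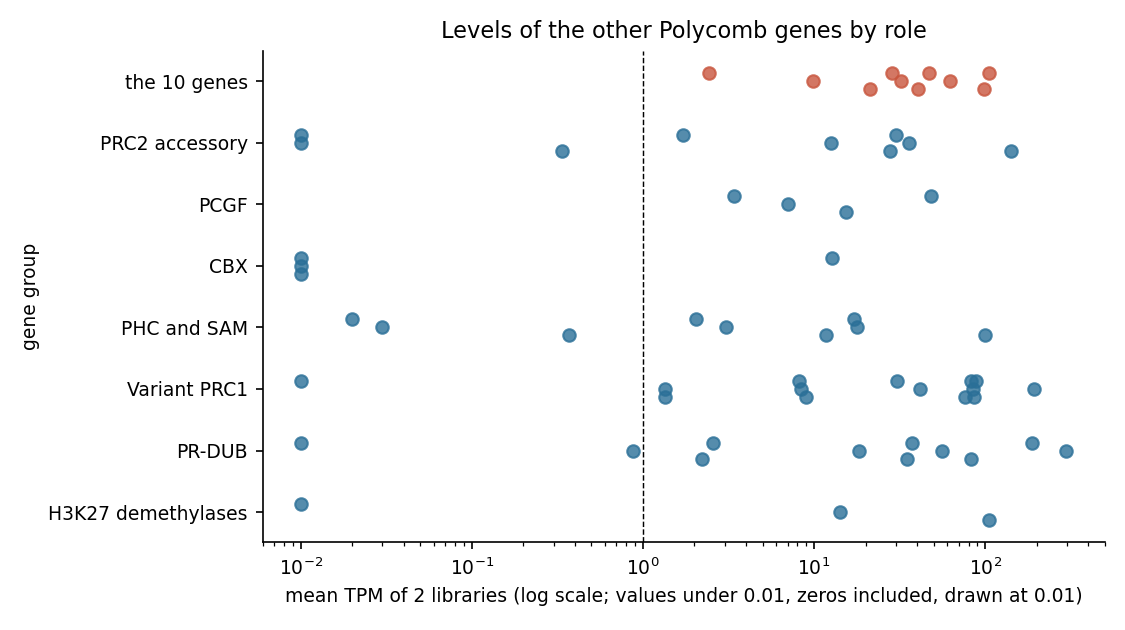
Mean TPM of the 2 libraries on a log axis for the 10 genes and for 54 further Polycomb genes by group, 1 point per gene, with a dashed line at 1 TPM. The 10 genes lie between 2.43 and 105 TPM, within the range of the other groups, and Cbx2 and Cbx8 are among the points at the left edge.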

How the data were processed

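PolyA RNA-seq of 2 libraries was analysed from tables of genes and transcripts. Per the deposited notes the build is mm10 and the annotation GENCODE M4. The aligner, strand setting and quantifier version were not given in the sources used here. The authors' expected counts, in columns named as RSEM names them per the file headers, are estimated fragments per feature, the deposited TPM divides these by effective length and sums to 1e6, and each deposited isoform percentage (a percent) is the part of a gene's TPM on 1 transcript. The deposited posterior mean estimates, which average over possible divisions of fragments among transcripts, were an alternative. Interval bounds that the authors give for TPM, classed as signal, are not reported.

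Gene symbols, transcript types, exons and coordinates came from GENCODE M21, which uses GRCm38, another name for that build. The 26345 rows with no Ensembl gene identifier, holding 5.21e-06% and 0% of counts, were left out. Ezhip was matched through its RefSeq synonym. Sequences were read from the GRCm38 genome. Expected counts were rounded for the binomial test, run in Python 3.11.15 with scipy 1.17.1 on TMM-scaled library sizes from edgeR 4.0.16. Benjamini-Hochberg adjustment covered all genes with at least 10 counts in sum, and 0.5 counts were added for the fold. DESeq2 1.42.0 size factors were an alternative, and the test was tested on simulated data. With 1 library a side, p-values and intervals cover counting error only, and 3 counts, the limit that a count of 0 allows, equal 0.0781 and 0.0499 counts per 1e6 in replicates 1 and 2.

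All 10 genes were described, with transcripts at 10% or more in both libraries. Of the other groups the text names the highest and lowest gene, genes called with a mean of at least 20 TPM, and genes of the 6 pairs. The genes and lists were chosen with earlier results of these data known. The summaries of skipped exons, transcript starts and intron bases, the transcripts named below 10% in a library, Kdm6a, Cbx6, Cbx2 and the Y-linked genes were chosen after their values were seen.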

Additional observations from a re-analysis of the deposited data

How the results depend on the processing

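All 10 genes stayed expressed at 0.5 TPM, on protein-coding transcripts and in either library alone, and 9 did at 5 TPM. The order of levels was the least stable result. Of the 10 genes, 2 kept their place over protein-coding transcripts, 5 by counts per kb of the longest transcript and 3 to 6 with 1 library left out. At the lower fold limit tried, 7 of the 10 were called between the libraries, beside 59% of all genes tested, and Suz12 alone was called under the other 6 alternatives. At a fold of at least 2, 10 of the other Polycomb genes were called, and 2444 of all genes (21.8%) in place of 4649. The mean log2 ratio of Suz12 to Eed, -0.18, became 2.17 over protein-coding transcripts and 2.53 for counts not divided by length, and ran from -1.29 to 0.93 with 1 library left out. Bmi1 to Pcgf1 was 1.91 over protein-coding transcripts, no longer beyond the spread. Bmi1 to Pcgf2 exceeded the spread at 3.56 with 1 TPM added, 2.16 over protein-coding transcripts and 4.53 by counts. The cause was not tested in these cases. With 1 group and 2 libraries, leaving out a library leaves no test between them. No paired analysis was possible because there is only 1 group. Depth limits Pcgf1 and Ezh1 most, at 94 and 165 counts in replicate 1.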

Other observations

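Textbook targets of Polycomb silencing were looked up as 20 developmental regulators and cell-cycle inhibitors. Of these, 17 were under 0.1 TPM in both libraries and 14 had 0 counts in both, Cdkn2a, Gata4, Foxa2 and Wnt1 among them. These are 85% and 70% of the list, beside 72.5% and 63% of all 43346 genes and 52.3% and 39.7% of protein-coding genes. Pax6, a regulator of eye and brain development at chr2:105668900-105697364, had 40.5 TPM in replicate 1 and 32 in replicate 2, from 2598 and 2776 counts. Protein-coding transcripts held 65.8% and 44.9% of its TPM, and 4 of them had at least 100 counts in both libraries. Pax3, a regulator of neural crest and muscle named after its values were seen, had 4.39 and 4.85 TPM from 415 and 863 counts, with 100% and 99.6% on protein-coding transcripts. Pax6 and Pax3 were the only 2 of the 20 expressed.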
